A study of Homo sapiens with 6 samples.

Results

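The genes described here are 51 factors that select, license and fire DNA replication origins or that copy DNA and restore chromatin at the moving fork. They were taken by gene symbol from a table of 12793 rows, and all 51 were found there, 1 row each. The table gives RNA-seq values for 6 libraries of HCT15, an established colorectal cancer cell line. In 3 libraries the cells carried a control guide (sgctrl, genotype labelled WT), and in the other 3 they carried a guide to RBM15 (sgRBM15, genotype labelled RBM15 Knockout). All cells were grown in the same serum-containing medium, and the labels name no drug, time point or separate clone. They do not say whether a group is 1 clone or a pool of edited cells, nor whether its 3 libraries were grown apart, and the p-values therefore speak of library-to-library spread alone, part of which may be technical. The comparison asked which transcripts differed once RBM15, an RNA-binding protein of the machinery that places m6A on RNA, had been targeted inside the tumour cells.

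A cell copies its genome from many origins, each used at most once per cycle. In G1 the origin recognition complex (ORC) together with CDC6 and CDT1 loads the MCM ring onto DNA, a step called licensing. At the start of S phase the kinase CDC7 with DBF4 helps CDC45 and the GINS complex join that ring to make the active helicase. Polymerases, the sliding clamp PCNA, clamp loaders and chromatin factors follow behind it. Many of these genes are textbook targets of E2F transcription factors, which act as cells enter S phase, and their mRNAs are commonly high in dividing tumour cells.

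Values are FPKM, in which fragment numbers are divided by transcript length and library total. They allow levels of different genes to be set side by side, but the number of reads behind a value is unknown. Column sums ran from 402288 to 415057 FPKM, log2 levels correlated at 0.992 to 0.993 within groups and at 0.976 to 0.978 between them, and no library stood apart. Of 12 epithelial markers 7 were listed, with a summed level of 3803 to 3896 FPKM in control libraries and 3481 to 3621 FPKM in libraries labelled knockout. KRT20, CDX1, LGALS4, CEACAM5 and CEACAM6 were not among the listed rows. Few markers of other cells were listed: 1 of 8 fibroblast, 1 of 5 endothelial and 2 of 9 leukocyte genes had a row, and PTPRC, DCN and PECAM1 had none. The 2 leukocyte genes, CD68 and CD14, summed to between 6.26 and 6.77 FPKM in controls and between 9.88 and 12.2 FPKM in libraries labelled knockout. RBM15 itself was higher in the libraries labelled knockout, with 17.3, 18.5 and 18.0 FPKM against 5.97, 5.89 and 5.51 FPKM in control libraries (log2 difference 1.48, SE 0.049, limma adjusted p = 3.88e-06, called higher in each of the 15 alternatives; exact 2-sided permutation p = 0.1, the smallest that 3 against 3 libraries can give). Small edits can disable a gene and leave its mRNA in place, but here the mRNA rose, with a ratio of means of 3.1. Why RBM15 mRNA rose was not tested. This level does not settle the labels, and every direction below rests on them alone: higher and lower mean in the libraries labelled knockout relative to the control libraries.

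Promoters of some members with large increases are shown here as a description of their letters. Promoter windows of 300 bases (250 before and 50 after each start) came from RefSeq on GRCh38.p14, where 45 of the 51 members had an entry. The E2F letters searched were TTTCCCGC, TTTGGCGC, TTTCGCGC and TTTGCCGC, and the letters bound by NF-Y were CCAAT, each on both strands. Below are the stretches from 200 bases before to 10 bases after the start of the 2 members with the largest increases and the 2 ring subunits with the largest increases among genes with an entry. These ranks are of differences without correction for GC content or length. Each is written 5′ to 3′ on the gene's strand, with capitals marking E2F letters or their reverse complement and CCAAT or its reverse complement ATTGG.
CLSPN, chr1:35769969-35770178, minus strand: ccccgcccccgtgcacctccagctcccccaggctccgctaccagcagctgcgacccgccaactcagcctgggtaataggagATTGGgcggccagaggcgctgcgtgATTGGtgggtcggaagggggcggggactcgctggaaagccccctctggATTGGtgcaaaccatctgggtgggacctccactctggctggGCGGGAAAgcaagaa
MCM10, chr10:13161358-13161567, plus strand: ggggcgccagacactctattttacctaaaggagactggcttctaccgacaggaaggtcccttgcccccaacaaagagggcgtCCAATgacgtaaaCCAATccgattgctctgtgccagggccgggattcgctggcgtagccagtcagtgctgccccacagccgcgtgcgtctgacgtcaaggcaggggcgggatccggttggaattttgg
MCM6, chr2:135876434-135876643, minus strand: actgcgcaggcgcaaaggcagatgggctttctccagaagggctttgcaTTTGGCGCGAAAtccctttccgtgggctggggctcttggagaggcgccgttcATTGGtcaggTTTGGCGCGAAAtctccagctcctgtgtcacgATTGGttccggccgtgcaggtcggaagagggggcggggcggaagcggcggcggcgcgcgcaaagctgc
MCM3, chr6:52284733-52284942, minus strand: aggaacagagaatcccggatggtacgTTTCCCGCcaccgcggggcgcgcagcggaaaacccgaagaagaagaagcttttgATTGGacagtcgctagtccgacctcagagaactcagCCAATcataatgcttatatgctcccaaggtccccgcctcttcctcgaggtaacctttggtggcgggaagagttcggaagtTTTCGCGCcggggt

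MCM6 carries E2F letters on both strands at 2 places, where TTTGGCGC and the reverse complement of TTTCGCGC overlap. MCM3 has 1 match 174 bases before its start and another across the start, CLSPN has 1 across its start, and MCM10 has CCAAT only. Across the members, 58 promoters were listed, of which 41.4% held E2F letters and 55.2% CCAAT. Among all 35116 promoters of the same length the shares were 3.31% and 34.6%. Counted by gene, at any listed start, E2F letters were present in 51.1% of the 45 members and 7.04% of the 9137 tested genes with an entry, and CCAAT in 60.0% and 43.7%. A match describes letters and shows no binding, and a link between the letters and the differences was not tested. No match means only that these exact letters were absent from the window, so variant or more distant sites would be missed.

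Across the 51 factors most mRNAs were higher in the libraries labelled knockout, by small to moderate amounts. Every member passed the filter of a mean of at least 1 FPKM, and the lowest mean over the 6 libraries was 8.05 FPKM. The median of these means was 26.6 FPKM for the members and 12.7 FPKM for all tested genes. Tested with limma on log2(FPKM + 1) over 11451 genes, 38 members were called higher at an adjusted p of at most 0.05, 2 were called lower and 11 were not called. Over all tested genes 25.3% were called higher and 29.2% lower, 54.5% in either direction. That balance turned under other scalings, with 3367 genes higher and 2894 lower after quantile normalization, 3239 and 3044 with median centring and 3149 and 3103 on the TPM scale. Among the more abundant genes left by a filter at 5 FPKM, 2540 of 8809 were called higher and 2543 lower. Values of the 2 groups did not overlap for 39 members that were higher and 2 that were lower, while over all tested genes these shares were 29.6% and 33.4%. The median log2 difference of the members was 0.30, against -0.02 for all tested genes, and the median SD within a group on that scale was 0.0519 for the members and 0.0727 for all genes. In bulk RNA, more cells in S phase and more RNA per cell cannot be told apart. A ratio of means of at least 1.5 was reached by 10 members (19.6%) and by 3.9% of all tested genes. Of the 51 factors, 14 have exons that overlap those of another listed gene, where reads may be divided. Among the other 37, 28 were higher and 2 lower.

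**Figure D1:**
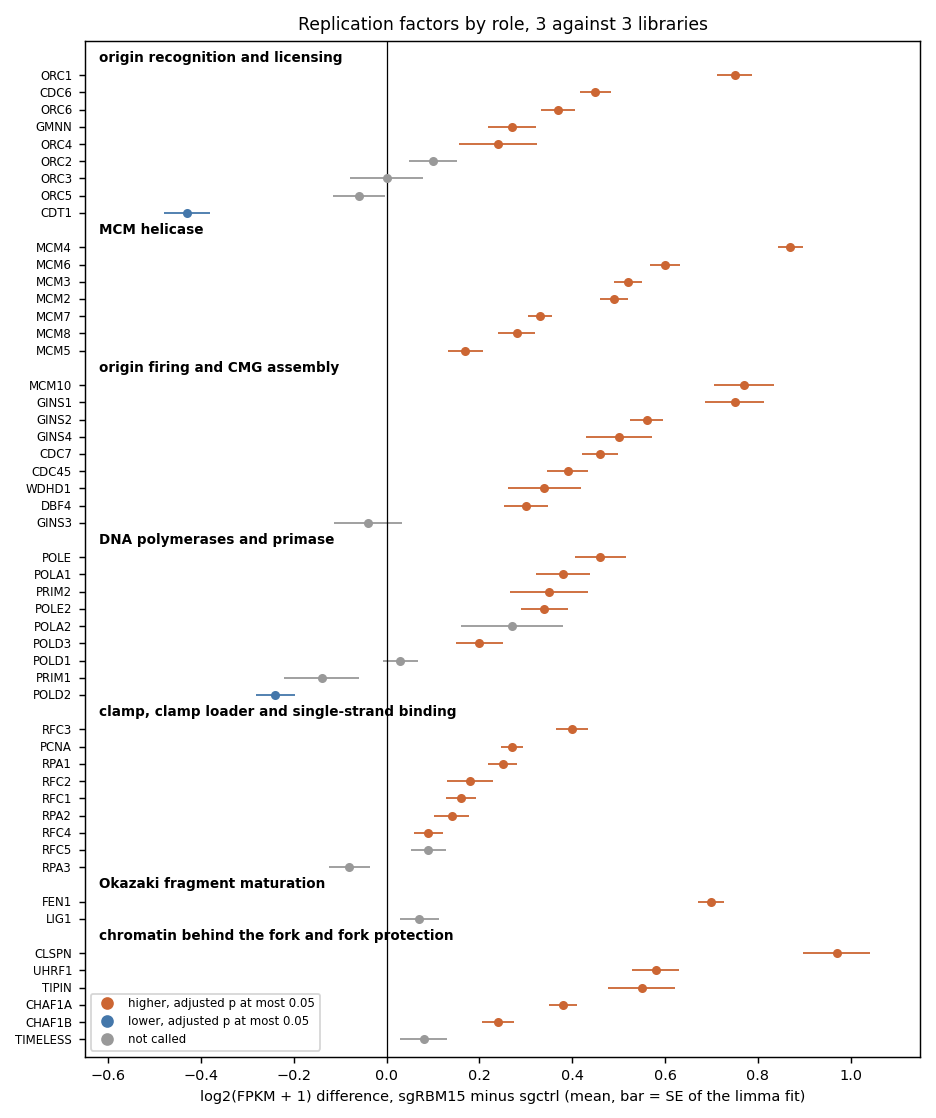
Each point is the difference in log2(FPKM + 1) of 1 gene, sgRBM15 minus sgctrl, with the standard error of the limma fit as a bar (3 libraries per group), grouped by role. All 7 genes of the MCM helicase group lie to the right of 0, from 0.17 to 0.87, whereas CDT1 at -0.43 and POLD2 at -0.24 are the called members on the left.

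In origin recognition and licensing, ORC1, ORC6, CDC6 and the licensing inhibitor gene GMNN were higher, the loader gene CDT1 was lower, and most of the central ORC subunits were not called. Of 9 genes 5 were higher, 1 lower and 3 not called, with a median log2 difference of 0.24. The shares over all tested genes were 25.3% higher and 29.2% lower. ORC1 encodes the large ATPase subunit that is made and destroyed with the cell cycle, and lies on the minus strand of chromosome 1 at 52372829 to 52404459 (GENCODE 29 on GRCh38, as for the positions of other genes). It stood at 12.3, 11.9 and 12 FPKM with the control guide, and in libraries labelled knockout at 21.4, 20.5 and 21.0 FPKM. The groups were far apart (log2 difference 0.75, SE 0.038, limma adjusted p = 1.85e-05). CDC6, the ATPase that joins ORC to load the ring, went from 31.1, 30.3 and 31.8 to 42.0, 42.8 and 43.2 FPKM. Every library labelled knockout lay above every control (log2 difference 0.45, adjusted p = 7.83e-05). ORC6, the small subunit outside the ATPase core, rose from 30.7 ± 0.286 to 40.1 ± 1.44 FPKM (SD, n = 3 libraries each, as in all such values; limma adjusted p = 0.000231).

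ORC2, ORC3, ORC4 and ORC5, the remaining subunits of the core, had a median log2 difference of 0.05. ORC2 was at 14.1, 15.2 and 14.3 FPKM in controls and 15.9, 16.4 and 14.9 FPKM in libraries labelled knockout. ORC3 was at 11.1, 11.0 and 13.6 against 11.9, 11.6 and 12.1 FPKM. ORC5 was at 22.1, 23.0 and 23.5 against 22.6, 20.2 and 23.1 FPKM. The groups overlapped for each of these 3 genes, and limma gave adjusted p = 0.126 for ORC2, 0.99 for ORC3 and 0.408 for ORC5. ORC4 was at 7.59, 7.17 and 7.07 against 9.54, 9.33 and 7.6 FPKM, so library 3 labelled knockout sat just above the highest control. Its exons overlap those of ACVR2A by 430 bp and of MBD5 by 157 bp, both on the opposite strand. ORC4 was called by a small margin (log2 difference 0.24, adjusted p = 0.045), and no longer so when any library other than library 3 labelled knockout was left out (0.188 to 0.269, adjusted p = 0.0656 to 0.131), without a filter (0.0508) and once a trend with GC content and length was taken out (0.117). ORC1 was also expressed against the mean of ORC2 to ORC5 in the same library. This ratio was 0.854 ± 0.0379 in controls and 1.44 ± 0.0165 in libraries labelled knockout. It was chosen with these levels in view and restates them. A factor common to all genes of a library cannot move it. Correction for GC and length was not applied to it, and took the log2 difference of ORC1 from 0.75 to 0.65. The exact 2-sided permutation test of each such within-library ratio has a floor of p = 0.1, and 14 ratios were computed (Benjamini-Hochberg adjusted p = 0.117 for each one whose groups did not overlap).

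CDT1, the factor that brings MCM to ORC and whose excess drives re-replication, had 23.2, 26.2 and 24.6 FPKM in control libraries. Libraries labelled knockout had 18.1, 18.2 and 17.9 FPKM, below every control. CDT1, on chromosome 16 (plus strand) at 88803213 to 88809258, had the largest decrease of the 51 (-0.43 on the log2 scale, SE 0.049, limma adjusted p = 0.000464). GMNN, which encodes geminin, the protein that binds CDT1 and blocks licensing after S phase starts, moved the other way. It was at 29.5, 30.9 and 28.3 FPKM in controls and 36.7, 37.3 and 33.8 FPKM in libraries labelled knockout (log2 difference 0.27, adjusted p = 0.00394). The ratio of CDT1 to GMNN was 0.784, 0.847 and 0.871 in control libraries and 0.494, 0.487 and 0.530 in libraries labelled knockout. Among the members CDT1 has the highest GC content, 66.0%, and over all tested genes with a GC value lower-GC genes had slightly higher differences (Spearman rho -0.19 over 11160 genes, a description across genes, which share libraries). With the trend over GC content and length removed CDT1 remained called lower, at -0.21. Over the 51 members the same rho was -0.03.

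**Figure D2:**
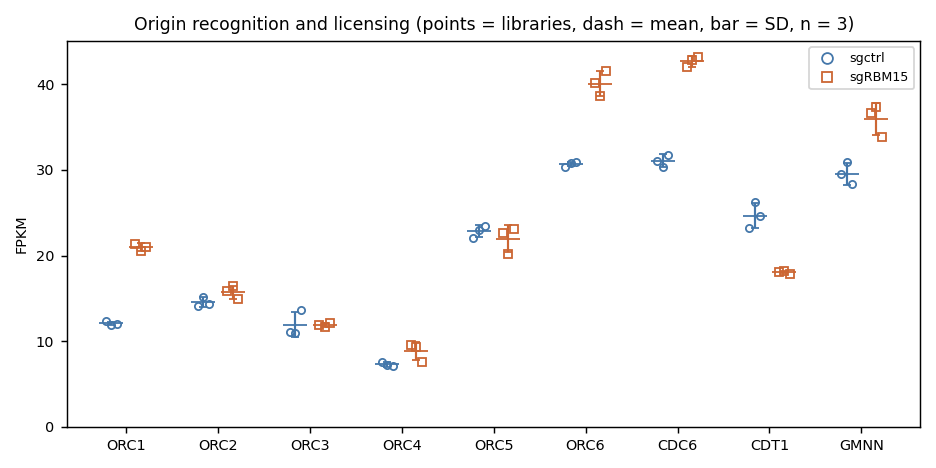
FPKM of the 9 origin recognition and licensing genes, with 1 point per library, a dash for the mean and a bar for the SD of 3 libraries per group. ORC1, ORC6, CDC6 and GMNN lie higher in sgRBM15 libraries and CDT1 lower, while ORC2, ORC3 and ORC5 overlap.

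All 6 genes of the MCM ring, the motor that unwinds DNA at the fork, were higher in the libraries labelled knockout. So was MCM8, beside 25.3% of all tested genes. The summed level of MCM2 to MCM7 went from 412 ± 4.79 to 590.0 ± 5.20 FPKM. MCM4, on chromosome 8 at 47960185 to 47978160, had the widest step of the ring: 71.1, 68.7 and 69.8 FPKM in controls against 129, 129 and 127 FPKM. The difference was 0.87 on the log2 scale (SE 0.027, limma adjusted p = 2.81e-06). MCM6, whose promoter above carries E2F letters at 2 places, was at 47.1, 48.4 and 48.9 FPKM and then at 72.3, 72.5 and 75.4 FPKM (log2 difference 0.60). Both genes were separated without overlap and kept their call in each of the 15 alternatives.

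MCM3 was at 76.1, 77.0 and 79.9 FPKM in controls and at 111, 111 and 113 FPKM in libraries labelled knockout (log2 difference 0.52). MCM2 was at 56.2, 55.7 and 58.5 against 79.8, 79.9 and 81.4 FPKM (0.49). Their shares of the ring overlapped between groups, with MCM3 supplying 18.9% of the summed FPKM in both groups and MCM2 13.8% ± 0.204 and 13.6% ± 0.0668. MCM7 is the most abundant ring mRNA and its exons overlap those of AP4M1 on the opposite strand by 392 bp. It was at 124, 125 and 128 FPKM against 159, 156 and 159 FPKM (log2 difference 0.33, adjusted p = 0.0001). MCM5 had the smallest difference of the ring, at 34.5, 35.0 and 32.9 against 38.7, 37.7 and 39.2 FPKM (0.17, adjusted p = 0.00712). Correction for GC and length changed the order within the ring. The differences were then 0.79 for MCM4, 0.55 for MCM2, 0.48 for MCM6, 0.45 for MCM3, 0.34 for MCM7 and 0.25 for MCM5. The 6 subunits are equal in the assembled ring, yet their mRNA levels were unequal in both groups. MCM4 made up 17.0% ± 0.38 of the summed FPKM in controls and 21.7% ± 0.33 in libraries labelled knockout, MCM7 went from 30.5% ± 0.155 to 26.8% ± 0.188 and MCM5 from 8.29% ± 0.362 to 6.53% ± 0.0747. None of these 3 shares overlapped between groups (exact permutation p = 0.1 each, the floor). MCM8, a relative of the ring with roles in recombination, was at 12.1, 11.8 and 11.5 against 14.4, 14.8 and 14.4 FPKM (0.28, and 0.15 once corrected for GC and length).

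**Figure D3:**
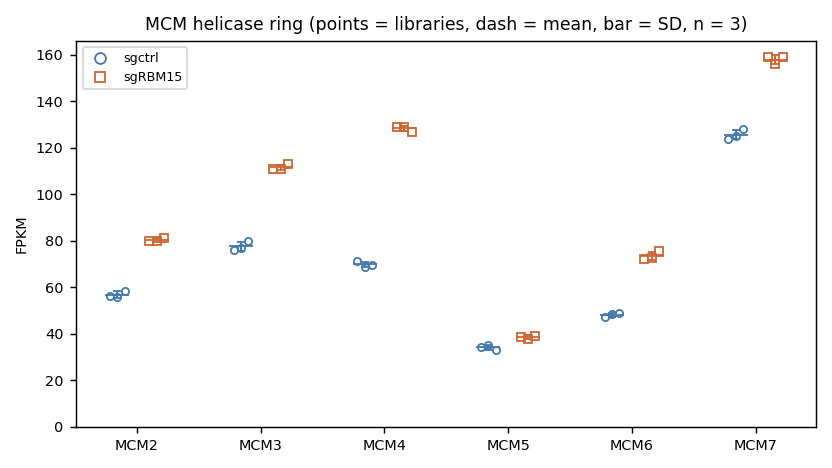
FPKM of MCM2 to MCM7, with 1 point per library, a dash for the mean and a bar for the SD of 3 libraries per group. The step from sgctrl to sgRBM15 is widest for MCM4 (69.9 to 128 FPKM) and narrowest for MCM5 (34.1 to 38.5 FPKM).

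Factors that turn the loaded ring into a moving helicase were nearly all higher: 8 of 9, beside 25.3% of all tested genes. GINS3 was not called, and the median log2 difference of the 9 was 0.46. MCM10, which binds the new helicase and lets it start to unwind, was at 12.7, 12.8 and 12.8 FPKM in controls and at 22.1, 20.6 and 24.7 FPKM in libraries labelled knockout. MCM10, on chromosome 10 at 13161554 to 13211104, had the largest difference of the group (0.77, SE 0.064, limma adjusted p = 0.000119). GINS1 was at 22.7, 23.9 and 22.7 against 38.8, 43.2 and 36.5 FPKM (0.75). The libraries labelled knockout spread more for MCM10 and GINS1 than the controls did, but the lowest of them was still well above the highest control.

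GINS is a complex of 4 different subunits, of which 3 were called higher, beside 25.3% of all tested genes. GINS2 rose from 15.6 ± 0.0574 to 23.5 ± 0.519 FPKM and GINS4 from 11.3 ± 0.669 to 16.4 ± 1.42 FPKM (limma adjusted p = 4.44e-05 and 0.00107). GINS3 was at 9.13, 10.4 and 8.62 FPKM in controls and at 9.51, 8.68 and 8.99 FPKM in libraries labelled knockout. Its groups overlapped (log2 difference -0.04, adjusted p = 0.639). Against the mean of the other 3 subunits in the same library GINS3 stood at 0.563 ± 0.0407 in controls and 0.343 ± 0.0186 in libraries labelled knockout, without overlap. The origin kinase subunits CDC7 (17.1 ± 0.529 to 23.9 ± 0.358 FPKM) and DBF4 (35.0 ± 1.86 to 43.3 ± 1.38 FPKM) rose together, by 0.46 and 0.30 on the log2 scale, and DBF4 by 0.19 once corrected for GC and length. CDC45, the helicase partner, rose by 0.39 and WDHD1, the adaptor between helicase and polymerase alpha, by 0.34.

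Of 9 polymerase and primase genes 5 were higher, 1 lower and 3 not called, with a median log2 difference of 0.27. Over all tested genes 25.3% were higher and 29.2% lower. POLE, the catalytic subunit of the polymerase assigned to the leading strand, was at 10.6, 11.8 and 11.1 FPKM in controls and 15.5, 15.2 and 16.6 FPKM in libraries labelled knockout (0.46, limma adjusted p = 0.000534). Its partner POLE2 rose by 0.34, and the histone-fold subunits POLE3 and POLE4, outside the 51 genes, by 0.25 and 0.14. The POLE4 call was a narrow one (limma adjusted p = 0.0404). It was lost with the replicate block (0.052), on correction for GC and length (0.0576) and without control library 1 (0.117), control library 3 (0.0956), library 2 labelled knockout (0.115) or library 3 labelled knockout (0.0699).

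Of the 3 members from polymerase delta, assigned to the lagging strand, 1 was higher and 1 lower. These counts are near the shares over all tested genes, 25.3% higher and 29.2% lower. POLD1, its catalytic subunit, was at 23.2, 23.5 and 24.4 FPKM against 23.7, 24.4 and 24.6 FPKM, with overlapping groups (0.03, adjusted p = 0.534). Once corrected for GC and length POLD1 was called higher (0.198, adjusted p = 0.00387), and its GC content is 64.1%. POLD2, the structural subunit, was at 111, 117 and 108 FPKM in controls and 98.6, 94.5 and 91.1 FPKM in libraries labelled knockout, the other member called lower (-0.24, SE 0.042, adjusted p = 0.0027, and -0.14 with the trend removed). POLD3, which supports processivity, rose by 0.20. POLD4, the small subunit and no member of the 51, fell from 19.0 ± 0.733 to 8.99 ± 0.877 FPKM (-1.01, limma adjusted p = 5.64e-05). The ratio of POLE to POLD1 was 0.471 ± 0.0277 in controls and 0.651 ± 0.0247 in libraries labelled knockout, without overlap. The log2 differences behind this ratio, 0.46 and 0.03, came closer to each other once corrected for GC and length, at 0.35 for POLE and 0.20 for POLD1.

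Of the 4 polymerase alpha-primase genes, which lay down the first primers, 2 were called higher, beside 25.3% of all tested genes. POLA1, the catalytic subunit, was at 7.44, 6.89 and 7.55 against 9.40, 9.58 and 10.4 FPKM (0.38, limma adjusted p = 0.00151, and 0.22 once corrected for GC and length). POLA2 was at 16.5, 16.1 and 14.0 against 17.9, 16.7 and 22.4 FPKM. Its groups did not overlap but the spread was wide and it was not called (adjusted p = 0.0764), except without library 2 labelled knockout (0.0399). POLA2 shares 2012 bp of exon with another listed gene on the same strand, so its reads may be divided differently between libraries, which was not tested. PRIM1, the catalytic primase subunit, was at 30.2, 24.2 and 29.6 against 24.8, 25.6 and 25.2 FPKM. Control library 2 was the lowest of all 6, and without it PRIM1 was called lower (-0.238, adjusted p = 0.0048 against 0.185 with all libraries). PRIM1 also shares 362 bp of exon with another listed gene. PRIM2, the regulatory subunit, rose from 12.8 ± 1.18 to 16.7 ± 1.48 FPKM (0.35, limma adjusted p = 0.0104), though the genome holds a near-identical partial copy and its reads may be divided.

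**Figure D4:**
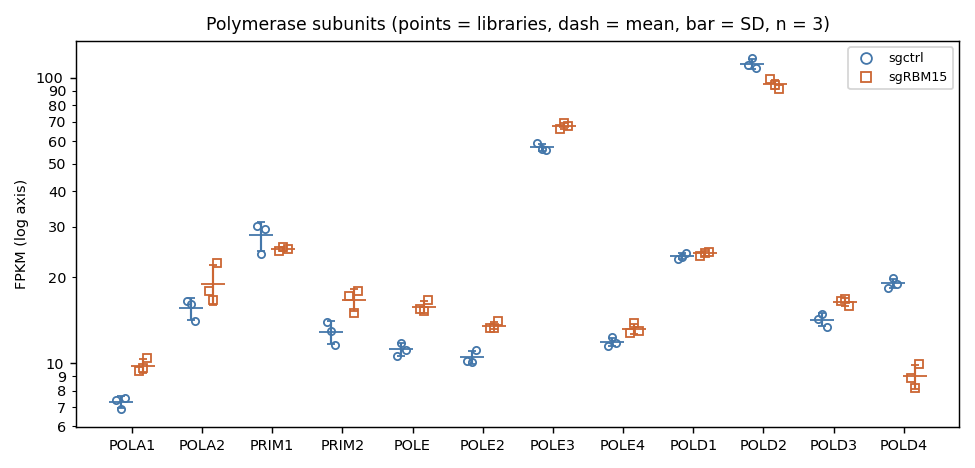
FPKM on a log axis for 12 subunits of polymerase alpha-primase, epsilon and delta, with 1 point per library, a dash for the mean and a bar for the SD of 3 libraries per group. The 4 epsilon subunits lie higher in sgRBM15 libraries, while POLD2 and POLD4 lie lower and POLD1 overlaps.

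The sliding clamp, its loader and the single-strand binding protein had the lowest median of the role groups (median log2 difference 0.16). Of 9 genes 7 were higher and 2 not called, beside 25.3% of all tested genes called higher. PCNA, the clamp that tethers polymerases, was the most abundant of the 51 mRNAs, at 257, 256 and 255 FPKM in controls and 314, 306 and 308 FPKM in libraries labelled knockout (0.27, SE 0.023, limma adjusted p = 0.000127). RFC3, a small loader subunit, was at 30.1, 30.9 and 29.5 against 40.5, 39.1 and 40.6 FPKM (0.40, adjusted p = 0.000141). It had the largest difference within the loader of 5 subunits, where RFC1 rose by 0.16 and RFC2 by 0.18, the latter not called once control library 1 was left out (adjusted p = 0.054).

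RFC4 sat near the threshold, at 72.6 ± 1.27 and 77.5 ± 1.89 FPKM (log2 difference 0.09, limma adjusted p = 0.0395). That call was lost in 9 of 15 alternatives: quantile normalization (0.0931), no variance trend (0.083), the replicate block (0.087), correction for GC and length (0.0504) and leaving out any library other than library 3 labelled knockout (0.0598 to 0.117). RFC5 was at 38.7, 38.9 and 40.8 against 43.1, 40.8 and 42.6 FPKM and was not called (0.09, adjusted p = 0.0743), though it was on the TPM scale (0.0331) and with median centring (0.0263). RPA coats the exposed single strand. RPA1, its large subunit, rose from 40.5 ± 0.473 to 48.5 ± 1.21 FPKM (adjusted p = 0.000738), and RPA2 by 0.14. The RPA2 call needed control library 1 (0.0564 without it), control library 2 (0.0553) and library 1 labelled knockout (0.0569). RPA3, the smallest subunit, was at 16.9, 16.1 and 17.2 against 16.4, 15.4 and 15.5 FPKM, overlapping (-0.08, adjusted p = 0.163).

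Of the 2 genes of Okazaki fragment maturation, the nuclease gene was called higher and the ligase gene was not called. FEN1, which trims the flap left by the primer and lies on chromosome 11 at 61792637 to 61797244, was at 48.8, 48.6 and 48.4 FPKM in controls and at 78.4, 80.5 and 80.1 FPKM in libraries labelled knockout. The SD of the controls was 0.193 FPKM, and the difference was 0.70 on the log2 scale (SE 0.028, limma adjusted p = 6.96e-06). FEN1 exons overlap those of TMEM258 on the opposite strand by 166 bp and of FADS2 on the same strand by 49 bp. LIG1, which seals the nick, was at 24.4, 24.1 and 22.9 against 24.2, 25.1 and 25.8 FPKM, overlapping and not called (0.07, adjusted p = 0.18). Once corrected for GC and length LIG1 was called higher (0.153, adjusted p = 0.0185), with a GC content of 59.5%. FEN1 stood at 2.05 ± 0.0602 times LIG1 in controls and 3.18 ± 0.0693 times in libraries labelled knockout.

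The largest increase among the 51 genes lay in fork protection. With the chromatin factors, 5 of 6 genes were higher (median 0.46), beside 25.3% of all tested genes. CLSPN encodes claspin, the mediator that passes the stalled-fork signal from ATR to its effector kinase, and lies on the minus strand of chromosome 1 at 35720218 to 35769967. It was at 5.64, 6.12 and 6.63 FPKM in controls and 12, 13.4 and 13.6 FPKM in libraries labelled knockout, a ratio of means of 2.12 (log2 difference 0.97, SE 0.072, limma adjusted p = 7.3e-05). TIPIN rose from 14.1 ± 0.808 to 21.1 ± 1.86 FPKM (0.55). Its binding partner TIMELESS was at 29.4, 30.8 and 32.6 against 33.2, 31.1 and 33.7 FPKM, overlapping and not called (0.08, adjusted p = 0.241).

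UHRF1, which reads half-methylated DNA behind the fork and recruits the maintenance methyltransferase, was at 30.2, 30.9 and 27.9 against 43.2, 44.5 and 47.3 FPKM (0.58, limma adjusted p = 0.000145). Among the histone depositing CAF-1 subunits, CHAF1A rose from 23.9 ± 0.269 to 31.2 ± 0.166 FPKM (0.38). CHAF1B rose from 15.2 ± 0.19 to 18.1 ± 0.179 FPKM (0.24), a call lost on correction for GC and length (0.10, adjusted p = 0.0534).

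Most members were called higher whether or not their windows held the searched E2F letters, beside 25.3% of all tested genes. Of the 23 members with E2F letters at any listed start, 18 were higher, 1 lower and 4 not called, with a median log2 difference of 0.40. Of the 22 without, 15 were higher, 1 lower and 6 not called, with a median of 0.24. MCM10, ORC1 and FEN1 were among the latter, while CDT1, GINS3, LIG1, ORC3 and POLA2 carry E2F letters and were not called higher. The letters of these 5, chosen after their values were seen, are shown for comparison with those of CLSPN, MCM6 and MCM3 above, with E2F letters in capitals and 8 bases on each side.
CDT1, chr16:88803746-88803769, plus strand: gggcgcccGCGGGAAAtttggcgg
GINS3, chr16:58392458-58392481, plus strand: ccccgggcGCGGGAAAcgagtttc
LIG1, chr19:48170443-48170466, minus strand: tcacccctTTTCCCGCcctcctcc
ORC3, chr6:87590115-87590138, plus strand: gagggcgcGCGGGAAAtcccgagt
POLA2, chr11:65261901-65261924, plus strand: gctcccggTTTCGCGCatgcgtgc

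CDT1, GINS3 and ORC3 share the same 8 letters with CLSPN, GCGGGAAA. CLSPN had the largest increase and CDT1 the largest decrease of the 51, and a link between letters and differences was not tested. Among tested genes outside the 51, 32.4% of the 620 with E2F letters were higher, and 25.4% of the 8472 without. CCAAT was present at 27 of the 45 members with an entry, of which 21 were higher (median 0.38). Of the 18 without it 12 were higher (median 0.26). Over all tested genes with an entry, 27.3% of those with CCAAT and 25.2% of those without it were higher.

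Another 76 replication genes outside the 51 were described the same way, from 7 lists of related roles. Of these 38 were higher, 8 lower and 30 not called, with a median log2 difference of 0.17, between the members (0.30) and all tested genes (-0.02). Counts of each list are to be read beside the 25.3% of all tested genes called higher and the 29.2% called lower. Among 13 other initiation factors 10 were higher and 1 lower. The call was lost in 7 of 15 alternatives for MCM9 and in 6 for DBF4B. For RIF1 and PHIP it was lost on correction for GC and length. TICRR, which brings CDC45 to the ring, rose from 8.24 ± 0.482 to 14.1 ± 0.808 FPKM (0.71), its partner TOPBP1 by 0.45, and LRWD1, which encodes an ORC-associated protein, by 0.45. Once corrected for GC and length the difference was 0.29 for TOPBP1 and 0.68 for LRWD1. Of 12 genes that control licensing through protein turnover 6 were higher, none lower (limma, also at an unadjusted p under 0.05) and 6 not called. USP37, a deubiquitinase, rose from 2.93 ± 0.141 to 6.27 ± 0.116 FPKM (0.89), DTL, the adaptor that marks CDT1 for destruction at PCNA, from 11.7 ± 0.103 to 17.3 ± 1.12 FPKM (0.52) and the F-box gene CCNF by 0.48.

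Other polymerase subunits and fork enzymes had 7 higher and 3 lower of 18. For this and the next lists, the shares over all tested genes were 25.3% higher and 29.2% lower. RNASEH2A, among the 3 called lower here, had a limma adjusted p of 0.0484 and lost the call in 10 of 15 alternatives. The exonuclease gene EXO1 rose by 0.70, while POLI, a translesion polymerase, fell from 6.95 ± 1.88 to 3.01 ± 0.466 FPKM (-0.97), next to POLD4. Of 8 other clamp loaders and unloaders 3 were higher, namely DSCC1 (0.53), ATAD5 (0.47) and RAD1 (0.37), and 1 lower. Chromatin copying and cohesion at the fork had 8 higher and 1 lower of 12, led by MMS22L (0.54), its partner TONSL (0.38) and the cohesin acetyltransferase gene ESCO2 (0.36). Of 6 genes of replisome unloading 4 were higher, with the segregase gene VCP at 113 ± 2.12 and 149 ± 3.10 FPKM (0.39), UBXN7 at 0.31 and LRR1 at 0.27. LRR1 was not called once control library 1 (adjusted p = 0.0688) or 3 (0.0642) was left out. CUL2, also called higher (0.17, limma adjusted p = 0.0383), lost the call in 7 of 15 alternatives. Of 7 fork checkpoint genes limma called 0 higher (1 at an unadjusted p under 0.05) and 2 lower, a share near the 29.2% of all tested genes called lower. The 2 are the fork remodellers HLTF (-0.37) and SMARCAL1 (-0.23), and the median was -0.10. CHEK1, the kinase that claspin helps activate, was at 35.9 ± 3.77 and 42.1 ± 3.16 FPKM and was not called (limma adjusted p = 0.0533). CHEK1 was called higher without control library 1 (0.0151), with median centring (0.0339), on the TPM scale (0.0459) and under the filter at 5 FPKM (0.048).

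**Figure D5:**
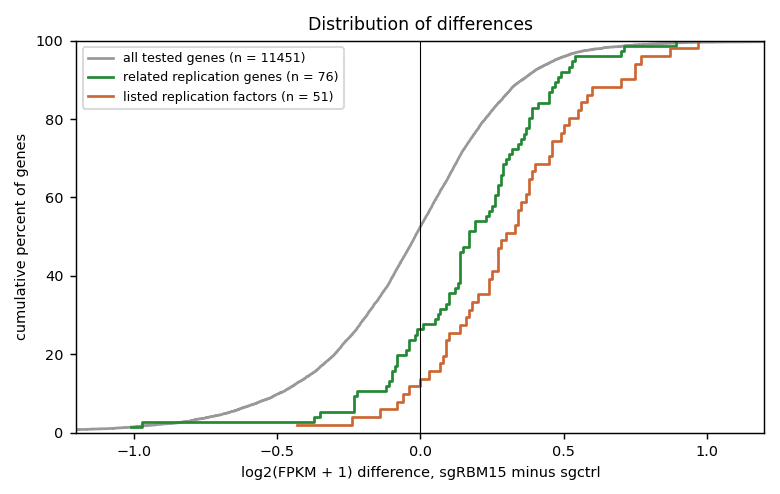
Cumulative percent of genes (vertical axis) by difference in log2(FPKM + 1), sgRBM15 minus sgctrl (horizontal axis), for all 11451 tested genes, 76 related replication genes and the 51 factors. The curve of the 51 lies furthest to the right, with a median of 0.30 against 0.17 and -0.02, and the axis is cut at 1.2 on either side.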

How the data were processed

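RNA-seq libraries were read as paired ends of 150 bp. The authors deposited FPKM per gene, per the file headers. The submitters' processing notes name HISAT2 2.2.1, StringTie 2.0.4 and hg38. For the annotation, use of strand and row filter, the sources used here give nothing. Ratios of values below 0.5 FPKM between libraries showed no steps of whole reads (at most 0.93% in a window of 0.1%), so depth is unknown and precision rests on 3 libraries per group. Genes averaging 1 FPKM or more were tested as log2(FPKM + 1), pseudocount 1, with limma 3.58.1 in R 4.3.3 (trended variances, no covariates, 2-sided, Benjamini-Hochberg over 11451 genes, threshold 0.05). This scale understates the change of low genes. Within-library ratios used exact permutation over 20 assignments. GC content and length are means over GENCODE 29 transcripts.

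The members, lists and tests were chosen with earlier results of these data known. Values in every library are given for MCM2 to MCM7, the 2 called members of each role with the largest difference, members called lower and members not called. Up to 3 called genes are named per related list. POLE3, POLE4, CHEK1 and members named for their ratio or promoter were picked with their values in view. Alternatives were quantile normalization, median centring, the TPM scale, a pseudocount of 0.1, a filter at 5 FPKM or none, untrended variances, the replicate block, each library left out and correction for GC and length.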

Additional observations from a re-analysis of the deposited data

How the results depend on the processing

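Under the 15 alternatives between 34 and 39 of the 51 factors were called higher and 2 or 3 lower, and the median difference of the factors stayed between 0.25 and 0.34. No called factor changed direction, and 33 of the 38 called higher were called higher each time. The 5 that were not are ORC4, RFC2, RFC4, RPA2 and CHAF1B, given above. Leaving out 1 library in turn gave 34 to 38 higher and 2 to 3 lower among the factors, 33 to 37 higher and 7 to 8 lower among the 76 related genes, and 5451 to 5646 called genes in all. Among the related genes, median centring called 42 higher and correction for GC and length 12 lower, the highest counts of the 15, against 38 and 8. Over all genes the counts ran from 5083 with a filter at 5 FPKM to 6612 without a filter, against 6245. The replicate block called 37 factors higher and 2 lower, and 5782 genes in all. Deviations of libraries with the same replicate number correlated at -0.035, -0.037 and 0.0, and those with different numbers at -0.02 to 0.054. These values show no strong effect shared by number. They cannot show whether libraries with the same number were prepared together. The GC and length trend was fitted over 11160 genes with a value. Depth is unknown, so small differences such as that of RFC4 rest on 3 libraries per group alone.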
